A study of Mus musculus with 30 samples.

Results

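The mitochondrial carriers described here are the genes whose symbol begins with Slc25a in RNA-seq counts of gonadal white adipose tissue (gWAT), without *Slc25a1*, *Slc25a20* and *Slc25a44*. This rule on the symbol gave 45 of the 55401 genes counted. The gWAT came from 30 female New Zealand Obese mice (strain label NZO/HIBomDife), with 1 library per mouse: 15 of these mice were classed as diabetes-prone (DP) and 15 as diabetes-resistant (DR). All mice were of the same age and inbred strain and had received a high-fat diet, no other treatment or allele is named, and the class of each mouse was set by a risk score, so that DP and DR are predicted and not observed outcomes. DR mice served as the control group, and the comparison asked how the tissue differs before hyperglycaemia.

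Carriers of this family sit in the inner membrane of mitochondria, with a few exceptions in other membranes, and move nucleotides, phosphate, carboxylates, amino acids, cofactors and iron between the cytosol and the matrix. They are encoded in the nucleus, are made in the cytosol and are inserted into the inner membrane by the TIM22 complex. In white adipose tissue they link ATP export, citrate and malate traffic and cofactor supply to fat synthesis and fat breakdown.

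Total counts ran from 28146906 to 29974243 per library, and transcripts of mitochondrial DNA took 6.18% ± 0.62 of them in DP against 7.19% ± 0.62 in DR (mean ± SD, n = 15 each). The test covered 17482 genes, with 4933 higher and 4771 lower in DP (edgeR quasi-likelihood test, Benjamini-Hochberg adjusted p below 0.05), so that more than 1 in 2 genes passed. The median log2 fold change over all genes was -0.0056. Sums of macrophage and adipocyte markers moved with the groups. The summed level of 20 macrophage markers ran from 5683 to 9343 CPM in DP and from 2145 to 5371 CPM in DR. That of 18 adipocyte markers ran from 35987 to 46209 CPM in DP and from 47582 to 55548 CPM in DR. Single genes of the macrophage set were divided, with 15 called higher in DP. *Cd163* and *Timd4* went the other way (log2 fold change -0.39 and -0.62), and *Mertk*, *Marco* and *Lyve1* had no call. In the adipocyte set 17 genes were called lower in DP, and *Cd36* had no call. Markers of other cell types moved as well: all 10 endothelial and 7 of 9 mesothelial markers fell (median log2 fold change -0.35 and -0.59), and of 10 fibroblast or progenitor markers 6 rose and 1 fell (median 0.25). Their summed levels overlapped between the groups, at 748 to 1197 CPM in DP and 998 to 1430 CPM in DR for endothelial, 51.0 to 146 and 79.8 to 243 CPM for mesothelial and 5809 to 9449 and 4442 to 6819 CPM for fibroblast or progenitor markers, and their part in the results was not tested. Of 8 tested brown or beige adipocyte markers 1 rose and 4 fell, with sums of 109 to 194 CPM in DP and 124 to 243 CPM in DR. Of 6 tested skeletal muscle markers 0 rose and 1 fell, with sums of 27.4 to 94.0 CPM in DP and 44.1 to 230 CPM in DR. The part of these 2 lists was not tested either. Fewer cells of a type and less RNA per cell cannot be told apart in these whole-tissue libraries. Adipocyte markers were abundant, while 7 of 10 markers of the female reproductive tract had a mean below 1 CPM, with *Fshr* and *Cyp19a1* at 0 in all libraries.

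DR replicate 7 stood apart because it held RNA of liver genes. *Alb*, the serum albumin gene, was at 4367 CPM in that library and at no more than 36.5 CPM in any other, and the summed level of 5 liver markers was 5245 CPM against at most 47.1 CPM elsewhere. Of the mesothelial markers, *Krt8*, called lower in DP, was also highest there (7.39 CPM against at most 4.48 CPM elsewhere). So was *Krt18*, which had no call (6.45 against 3.55 CPM). The *Krt8* result without that library is not given here. Among the 38 tested carriers, DR replicate 7 held the highest value of the DR group for 4: *Slc25a47*, *Slc25a13*, *Slc25a15* and *Slc25a42*. *Slc25a47*, a carrier gene known for its expression in liver, was at 11.5 CPM there and at no more than 1.51 CPM in the other DR libraries. *Slc25a13* stood at 13.99 CPM against a highest value of 10.9, *Slc25a15* at 19.8 against 13.2, and *Slc25a42* at 96.3 against 91.7 CPM. Results on these 4 genes are given with and without that library.

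**Figure D1:**
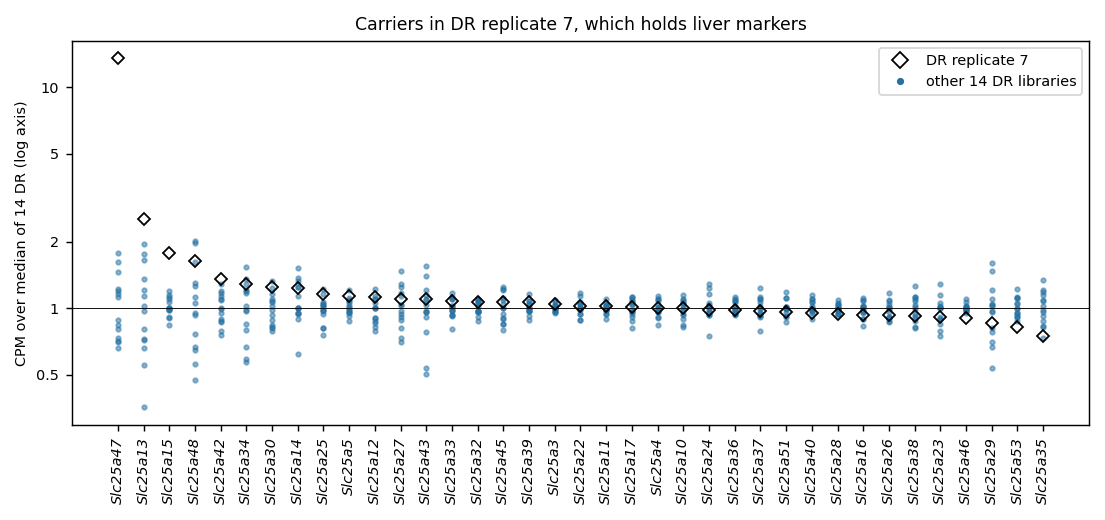
CPM of 37 tested carriers in DR replicate 7 (diamonds) and in each of the other 14 DR libraries (points), divided by the median of those 14 (log axis). Slc25a47 in DR replicate 7 lies 13.6 times above that median and Slc25a13 lies 2.53 times above it, and both diamonds are higher than all 14 other points.

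Of the 45 carriers, 38 passed the filter on low counts and 7 did not. The latter were *Slc25a2*, *Slc25a18*, *Slc25a21*, *Slc25a31*, *Slc25a41*, *Slc25a54* and the pseudogene *Slc25a5-ps*. *Slc25a31*, the ADP/ATP carrier known from testis, averaged 7 counts per library, *Slc25a18*, a glutamate carrier known from brain, averaged 8.20, and *Slc25a21*, an oxodicarboxylate carrier, averaged 6.60. *Slc25a2*, an ornithine carrier, averaged 1.83 counts and *Slc25a5-ps* 1.1. *Slc25a41* and *Slc25a54* each had 2 counts in 1 library and 0 counts in the other 29, and 0 counts allow up to 3 counts per library, from counting error only. In an edgeR fit without the filter 0 of these 7 genes passed, and 1 had an unadjusted p below 0.05. This was *Slc25a21*, at 0.139 ± 0.108 CPM in DP and 0.322 ± 0.233 CPM in DR, with 14 of 15 DP libraries below the DR median (log2 fold change -1.17 ± 0.46 SE, adjusted p = 0.0523). Its highest DR value, 0.937 CPM, came from DR replicate 7, against at most 0.529 CPM in the other DR libraries. Without that library the DR level was 0.278 ± 0.165 CPM. For the other 6 a difference was not detectable at this depth.

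Between genes, levels are compared per kilobase of exon (FPKM, from counts scaled to a common total). 31 carriers exceeded 1 FPKM on average and 15 exceeded 10 FPKM, and the 6 most abundant held 68.5% of the summed FPKM of the family. *Slc25a5* led with 162 ± 12.5 FPKM (mean ± SD over 30 libraries), and it encodes an ADP/ATP carrier found in most tissues. *Slc25a10*, the dicarboxylate carrier, which is known to be abundant in white fat, came next at 89.9 ± 8.63 FPKM. The second ADP/ATP carrier gene *Slc25a4*, known from heart and muscle, was at 74.2 ± 7.37 FPKM, and the phosphate carrier *Slc25a3* at 63.4 ± 2.20 FPKM. The glutathione carrier *Slc25a39* stood at 57.9 ± 3.92 FPKM and the oxoglutarate and malate carrier *Slc25a11* at 41.1 ± 2.21 FPKM. In this order *Slc25a10* and *Slc25a4*, and *Slc25a3* and *Slc25a39*, lay within the sum of their SDs, while the other neighbours among these 6 did not. The lowest tested genes were *Slc25a47* at 0.395 and *Slc25a48* at 0.208 FPKM. The whole family took 0.236% ± 0.0061 of counts in DP and 0.249% ± 0.0089 in DR.

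**Figure D2:**
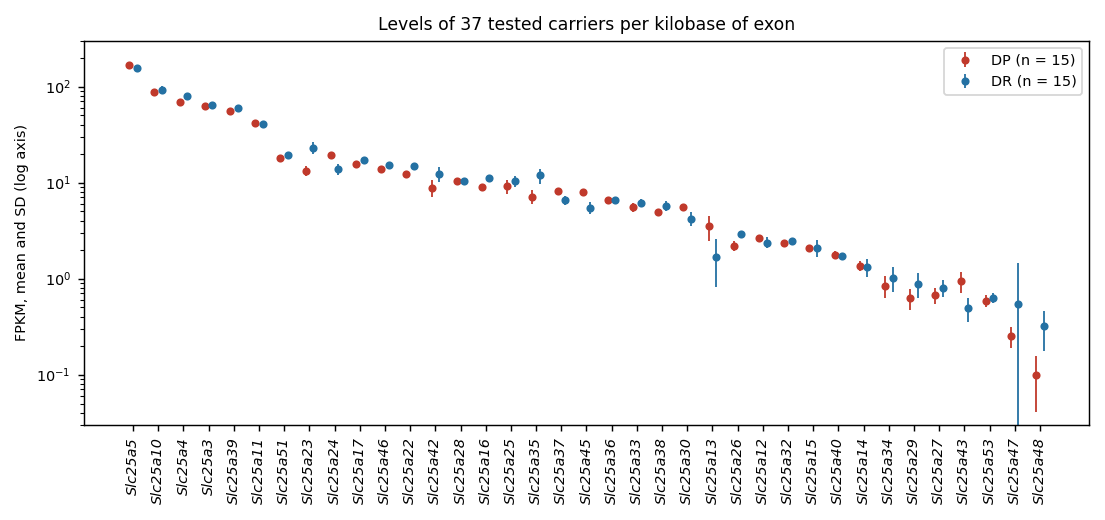
Mean FPKM of 37 tested carriers in DP and DR (n = 15 each, bars 1 SD, log axis), ordered by the mean over all libraries. Slc25a5 leads at 162 FPKM and 6 genes lie above 40 FPKM, after which levels drop to below 25; the wide DR bar of Slc25a47, cut at the lower edge, contains DR replicate 7.

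Among the 38 tested carriers 8 rose in DP, 18 fell and 12 did not pass the test. Over all genes tested 28.2% rose and 27.3% fell, beside 21.1% and 47.4% of the carriers. The median log2 fold change of the carriers was -0.094, and the median size of the change without its sign was 0.22 on the log2 scale against 0.18 over all genes. The members that rose were *Slc25a13*, *Slc25a43*, *Slc25a45*, *Slc25a24*, *Slc25a30*, *Slc25a37*, *Slc25a12* and *Slc25a5*. At a fold of at least 1.5, 2 carriers rose (7.09% of all genes) and 5 fell (4.6% of all genes), with *Slc25a48*, *Slc25a47*, *Slc25a23* and *Slc25a35* among the latter. Without DR replicate 7 the fold of *Slc25a47* dropped to 1.22 and the gene was not called (adjusted p = 0.109). In 1 carrier, *Slc25a45*, every DP library lay above every DR library, a pattern held by 1.96% of all genes, and in 1, *Slc25a23*, every DP library lay below every DR library, held by 0.927% of all genes.

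These calls did not hold in fits with marker levels as a covariate. With mean macrophage marker level as a covariate, edgeR called 0 carriers higher and 0 lower (8 at an unadjusted p below 0.05), and with adipocyte markers 0 and 0 (1 at an unadjusted p below 0.05). No other tool was run with these covariates. Over all genes the same fits called 5 higher and 40 lower, and 0 and 0. Neither marker sum overlapped between DP and DR, so group and tissue makeup cannot be told apart in these libraries, and this holds for every fold change below. With the share of counts on the mitochondrial genome as a covariate 7 carriers were higher and 12 lower. Over all 17482 genes that fit called 3840 higher and 3680 lower.

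**Figure D3:**
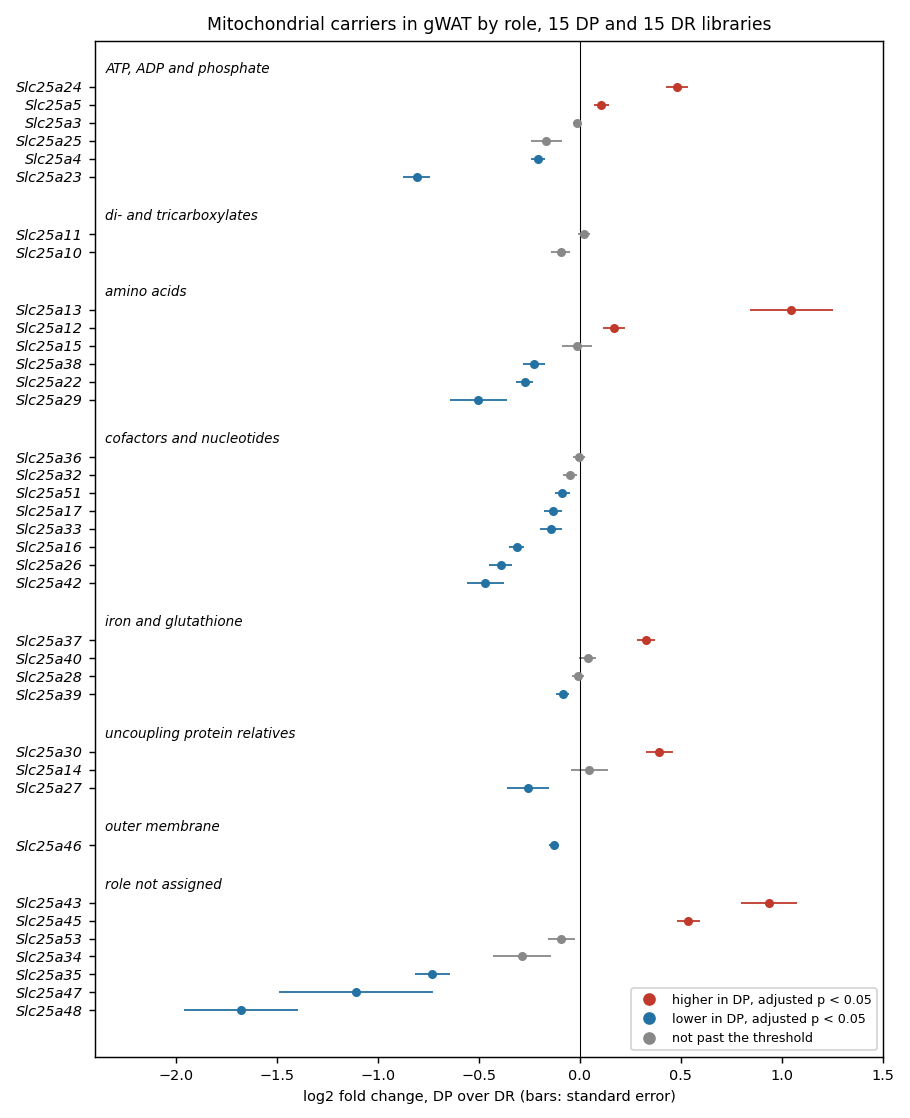
Log2 fold change of DP over DR with its standard error for 37 tested carriers, grouped by what they transport; red and blue points passed an adjusted p of 0.05 and grey points did not. Of the 8 cofactor and nucleotide carriers drawn 6 are blue and 0 are red, while the ADP/ATP and phosphate group holds 2 of each.

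ATP, ADP and phosphate carriers supply the ATP synthase and export its product. Of 6 tested members 2 rose, 2 fell and 2 did not pass, shares near the 28.2% and 27.3% of all genes. *Slc25a4* (chromosome 8, 46206797 to 46211284 of GRCm38) was lower in DP and its relative *Slc25a5* (chromosome X, 36795651 to 36798807) was higher. The lowest, median and highest library of *Slc25a4* were 147, 164 and 172 CPM in DP and 156, 187.6 and 211.8 CPM in DR. All 15 DP libraries lay below the DR median, with overlap of the groups, and the level was 162 ± 7.77 CPM in DP and 187.04 ± 15.1 CPM in DR (log2 fold change -0.21 ± 0.035 SE, adjusted p = 9.51e-06). The corresponding values of *Slc25a5* were 252, 279 and 294 CPM in DP and 221, 253 and 303 CPM in DR. 14 of 15 DP libraries were above the DR median, although the highest single value belonged to a DR library, and the level was 276 ± 13.2 CPM in DP and 256 ± 22.3 CPM in DR (log2 fold change 0.11 ± 0.037 SE, adjusted p = 0.0149). The phosphate carrier *Slc25a3* had a lowest, median and highest library of 332, 349 and 368 CPM in DP and 334, 350.2 and 379 CPM in DR, and the groups covered nearly the same range (log2 fold change -0.014, adjusted p = 0.597). Reads of ADP/ATP carriers may be shared with processed pseudogenes, and how such reads were assigned is not given in the sources used here.

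The ATP-Mg/phosphate carriers exchange ATP-Mg for phosphate across the inner membrane under the control of cytosolic calcium and thereby adjust the matrix pool of adenine nucleotides. *Slc25a23* (chromosome 17, 57043711 to 57059863) showed the largest fall among carriers with a mean count of at least 50. Its lowest, median and highest library were 56.0, 68.5 and 87.2 CPM in DP and 94.4, 126 and 163 CPM in DR, so that the highest DP library stayed below the lowest DR library. This was a 1.75-fold difference, from a mean of 70.1 ± 8.76 CPM in DP and 123 ± 17.4 CPM in DR (log2 fold change -0.81 ± 0.067 SE, adjusted p = 1.76e-10). *Slc25a24* (chromosome 3, 109123149 to 109168457), its relative with the same transport activity, was 1.40-fold higher in DP. Its libraries ran over 55.3, 66.5 and 74.7 CPM in DP and 34.8, 46.1 and 59.5 CPM in DR. All 15 DP libraries exceeded the DR median, and the overlap came from the highest DR libraries (65.8 ± 5.57 CPM in DP and 47.1 ± 6.01 CPM in DR, log2 fold change 0.48 ± 0.055 SE, adjusted p = 1.51e-08). *Slc25a25*, the third calcium-regulated member, was at 54.5, 69.0 and 94.1 CPM in DP and 61.6, 82.5 and 99.2 CPM in DR in its lowest, median and highest library, and at 72.3 ± 12.3 CPM in DP and 81.1 ± 10.6 CPM in DR on average it did not pass (log2 fold change -0.17, adjusted p = 0.0639). DESeq2 called it lower, with an adjusted p of 0.0443. Exons of *Slc25a23* share 168 bases with *Gm17168* and those of *Slc25a25* share 379 bases with *Naif1*, both on the opposite strand, and whether reads were counted by strand is not given.

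The promoters of *Slc25a23* and *Slc25a24* are shown because the ratio of these genes parted the groups completely. Each window holds 250 bases before and 50 bases after the RefSeq start on GRCm38.p6, written 5′ to 3′ on the strand of the gene, and capitals mark CG dinucleotides, the sites of DNA methylation in mammals.
Slc25a23, chr17:57059814-57060113, minus strand: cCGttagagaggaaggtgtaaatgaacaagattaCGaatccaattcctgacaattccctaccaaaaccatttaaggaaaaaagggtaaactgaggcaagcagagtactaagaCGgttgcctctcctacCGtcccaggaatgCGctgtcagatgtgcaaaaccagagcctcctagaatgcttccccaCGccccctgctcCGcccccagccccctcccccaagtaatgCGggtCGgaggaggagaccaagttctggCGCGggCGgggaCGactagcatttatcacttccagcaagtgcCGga
Slc25a24, chr3:109122899-109123198, plus strand: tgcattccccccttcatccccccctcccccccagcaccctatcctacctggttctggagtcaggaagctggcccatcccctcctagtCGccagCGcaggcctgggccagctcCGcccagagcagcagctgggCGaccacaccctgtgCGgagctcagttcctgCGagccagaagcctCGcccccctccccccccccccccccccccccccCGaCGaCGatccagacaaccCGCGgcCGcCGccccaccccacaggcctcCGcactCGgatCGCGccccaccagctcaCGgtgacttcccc
The *Slc25a23* window held 14 CG dinucleotides at 54.0% G and C, and the *Slc25a24* window held 19 at 72.3%. 34 of the 45 carriers had an entry, with a median of 17 CG dinucleotides per window against 7 over 27025 promoters. These 27025 were not limited to genes tested in this tissue, and a comparison with tested genes alone was not made. 3 motifs were searched on both strands: GCGCANGCG, known for NRF1, occurred in 2 of 34 carrier windows (*Slc25a3* and *Slc25a31*) and in 6.47% of all promoters. TNAAGGTCA, known for estrogen-related receptors, occurred in 0 of 34 carriers and 1.26% of all promoters, and CCGGAAGTG, known for ETS factors, in 0 of 34 and 2.06%. No motif contains another, and a match describes only these letters in these windows.

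The carboxylate carriers connect the citric acid cycle with the cytosol. Both tested members, *Slc25a10* and *Slc25a11*, missed the threshold. *Slc25a10* was at 254, 294 and 355 CPM in DP and 266, 323 and 370.2 CPM in DR in its lowest, median and highest library, with 13 of 15 DP libraries below the DR median (300.4 ± 25.9 CPM in DP and 321 ± 30.8 CPM in DR, log2 fold change -0.095, adjusted p = 0.089). *Slc25a11* was at 77.8, 87.6 and 95.1 CPM in DP and 77.6, 87.1 and 95.1 CPM in DR, and its groups covered the same range (log2 fold change 0.019, adjusted p = 0.615). Exons of both genes overlap a gene on the other strand, by 228 bases for *Slc25a10* and by 189 for *Slc25a11*.

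Of 6 tested amino acid carriers 2 rose and 3 fell, beside 28.2% and 27.3% of all genes. Both aspartate and glutamate carriers, the inner membrane step of the malate-aspartate shuttle that brings cytosolic reducing equivalents into mitochondria, were among those that rose. *Slc25a13* (chromosome 6, 6041218 to 6217173), known as citrin, had the largest rise among the tested carriers. Its lowest, median and highest library were 7.97, 13.8 and 20.9 CPM in DP and 1.97, 5.69 and 13.99 CPM in DR. The DR values spread widely, and DR replicate 7, the highest of them, exceeded the DP median, and all 15 DP libraries were above the DR median. The level was 13.3 ± 3.87 CPM in DP and 6.43 ± 3.31 CPM in DR, 2.07-fold higher (log2 fold change 1.05 ± 0.21 SE, adjusted p = 7.46e-05), and 2.24-fold higher without DR replicate 7 (adjusted p = 7.04e-06). *Slc25a12* (chromosome 2, 71271063 to 71367749), known as aralar, was at 17.8, 19.4 and 21.7 CPM in DP and 13.8, 17.6 and 21.5 CPM in DR, and again all 15 DP libraries exceeded the DR median (19.6 ± 1.02 CPM in DP and 17.4 ± 2.29 CPM in DR, log2 fold change 0.17 ± 0.052 SE, adjusted p = 0.00671). *Slc25a22*, a glutamate carrier, fell 1.21-fold with all 15 DP libraries below the DR median (73.6 ± 6.30 CPM in DP and 88.9 ± 7.07 CPM in DR, adjusted p = 2.19e-06).

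*Slc25a38*, the glycine carrier that feeds haem synthesis, fell 1.17-fold (adjusted p = 0.000919). *Slc25a29*, a carrier of basic amino acids, was at 0.974, 1.61 and 2.32 CPM in DP and 1.26, 2.29 and 3.76 CPM in DR in its lowest, median and highest library, with overlap of the groups and 14 of 15 DP libraries below the DR median (log2 fold change -0.50 ± 0.14 SE, adjusted p = 0.00311). The ornithine carrier *Slc25a15* of the urea cycle did not pass (11.7 ± 0.978 CPM in DP and 11.8 ± 2.43 CPM in DR, log2 fold change -0.013, adjusted p = 0.892), and without DR replicate 7 its log2 fold change was 0.046 (adjusted p = 0.454).

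The cofactor and nucleotide carriers held 7 of the 18 falls, more than any other group by role, and were also the largest group tested. Of 9 tested members 0 rose, 7 fell and 2 did not pass at this threshold in the edgeR fit. Over all genes 28.2% were called higher and 27.3% lower. The median log2 fold change of the group was -0.14. *Slc25a42*, which imports coenzyme A, had a lowest, median and highest library of 40.6, 51.0 and 78.9 CPM in DP and 53.9, 71.7 and 96.3 CPM in DR, with DR replicate 7 as the highest library (53.1 ± 10.8 CPM in DP and 73.5 ± 12.7 CPM in DR, log2 fold change -0.47 ± 0.092 SE, adjusted p = 6.81e-05), and without that library its log2 fold change was -0.45 (adjusted p = 9.55e-05). *Slc25a26*, the carrier of S-adenosylmethionine, was at 8.28, 10.5 and 13.3 CPM in DP and 12.3, 14.1 and 16.5 CPM in DR, and all 15 DP libraries lay below the DR median (10.6 ± 1.32 CPM in DP and 13.9 ± 1.23 CPM in DR, log2 fold change -0.39 ± 0.057 SE, adjusted p = 7.02e-07).

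*Slc25a16*, a carrier linked to coenzyme A, fell 1.24-fold with all 15 DP libraries below the DR median (42.7 ± 2.76 CPM in DP and 53.1 ± 4.16 CPM in DR, adjusted p = 3.72e-08). Smaller falls in this group were 1.105-fold for the pyrimidine nucleotide carrier *Slc25a33*, 1.096-fold for the peroxisomal carrier *Slc25a17* and 1.06-fold for the NAD carrier *Slc25a51* (adjusted p = 0.0272, 0.0125 and 0.0421). *Slc25a33* had a lowest, median and highest library of 8.66, 10.2 and 13.2 CPM in DP and 9.15, 11.6 and 13.4 CPM in DR, and the groups largely overlapped. Its relative *Slc25a36* was at 60.5, 63.4 and 68.5 CPM in DP and 58.8, 62.6 and 71.1 CPM in DR and did not pass (log2 fold change -0.0048, adjusted p = 0.898). *Slc25a32*, known as a folate and FAD carrier, was also not past the threshold (log2 fold change -0.050, adjusted p = 0.235). The calls of *Slc25a33*, *Slc25a17* and *Slc25a51* were lost when counts were scaled to library totals alone, without the TMM factor for composition, with adjusted p of 0.0758, 0.0591 and 0.206. Exons of *Slc25a26* and *Slc25a33* overlap genes on the other strand by 144 and 281 bases.

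Iron and glutathione carriers serve haem and iron-sulfur cluster synthesis and the thiol balance of the matrix. Of 4 members 1 rose and 1 fell, shares near the 28.2% and 27.3% of all genes. *Slc25a37*, mitoferrin 1, known as the iron importer of erythroid cells, rose in DP. Its lowest, median and highest library were 44.8, 49.1 and 55.9 CPM in DP and 30.9, 39.1 and 48.2 CPM in DR, and all 15 DP libraries were above the DR median (49.4 ± 3.45 CPM in DP and 39.3 ± 4.19 CPM in DR, log2 fold change 0.33 ± 0.046 SE, adjusted p = 4.94e-07). *Slc25a28*, mitoferrin 2, which serves other tissues, was at 35.0, 38.6 and 42.4 CPM in DP and 36.5, 38.9 and 42.5 CPM in DR, and the groups covered the same range (log2 fold change -0.010, adjusted p = 0.782). *Slc25a39* was at 141, 157 and 174 CPM in DP and 144, 163 and 188.7 CPM in DR, a 1.06-fold fall with large overlap (log2 fold change -0.09 ± 0.032 SE, adjusted p = 0.0246), which was lost without a composition factor (adjusted p = 0.132). Its relative *Slc25a40* did not pass (log2 fold change 0.038, adjusted p = 0.469). Exons of *Slc25a37* share 473 bases with *Gm27223* and *Gm31748* on the other strand.

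Among the relatives of the uncoupling proteins, *Slc25a30* (chromosome 14, 75760117 to 75787037) rose, with a lowest, median and highest library of 22.4, 25.3 and 27.8 CPM in DP and 14.9, 19.3 and 25.1 CPM in DR. All 15 DP libraries were above the DR median and the highest DR libraries reached the DP range (25.3 ± 1.72 CPM in DP and 19.3 ± 3.28 CPM in DR, log2 fold change 0.39 ± 0.066 SE, adjusted p = 7.24e-06). *Slc25a14* was low, at 2.59, 3.15 and 4.04 CPM in DP and 1.77, 2.85 and 4.33 CPM in DR, and did not pass (log2 fold change 0.047, adjusted p = 0.692). *Slc25a27* was also low at 2.64 ± 0.491 CPM in DP and 3.16 ± 0.650 CPM in DR and fell 1.196-fold (adjusted p = 0.0338), a call that the fit without a composition factor did not keep (adjusted p = 0.0594). *Slc25a46*, an unusual member of the outer membrane that takes part in mitochondrial fusion, fell 1.09-fold with all 15 DP libraries below the DR median (76.0 ± 2.96 CPM in DP and 83.2 ± 3.96 CPM in DR, log2 fold change -0.13 ± 0.024 SE, adjusted p = 3.47e-05). Its exons share 383 bases with *B930094E09Rik* on the other strand.

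For 7 tested members no transported substance is given here, and of these 2 rose and 3 fell, beside 28.2% and 27.3% of all genes. *Slc25a45* (chromosome 19, 5877808 to 5885878) was at 18.9, 22.1 and 24.6 CPM in DP and 11.9, 15.01 and 18.6 CPM in DR in its lowest, median and highest library, and its groups did not overlap (22.003 ± 1.46 CPM in DP and 15.2 ± 2.14 CPM in DR, 1.45-fold higher, log2 fold change 0.54 ± 0.057 SE, adjusted p = 4.94e-09). *Slc25a35* (chromosome 11, 68968131 to 68974365) was at 20.5, 26.02 and 35.2 CPM in DP and 31.9, 42.9 and 58.9 CPM in DR, with all 15 DP libraries below the DR median (26.3 ± 4.19 CPM in DP and 43.6 ± 7.90 CPM in DR, log2 fold change -0.73 ± 0.086 SE, adjusted p = 2.56e-08). Exons of *Slc25a35* share 1151 bases with *Rangrf* on the other strand, so its reads cannot be assigned with certainty. *Slc25a43* was low at 1.67 ± 0.402 CPM in DP and 0.869 ± 0.236 CPM in DR and 1.92-fold higher (log2 fold change 0.94 ± 0.14 SE, adjusted p = 1.13e-06), and *Slc25a48* was rarer still and 3.20-fold lower, at 0.333 ± 0.196 CPM in DP and 1.07 ± 0.471 CPM in DR (log2 fold change -1.68 ± 0.28 SE, adjusted p = 7.19e-06).

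*Slc25a47* is listed as a fall of 2.16-fold (0.745 ± 0.182 CPM in DP and 1.61 ± 2.76 CPM in DR, log2 fold change -1.11 ± 0.38 SE, adjusted p = 0.0137), and this value rested on DR replicate 7. Without that library the DR level was 0.904 ± 0.308 CPM (n = 14) and the gene did not pass (log2 fold change -0.29, adjusted p = 0.109), nor did it in DESeq2 (adjusted p = 0.143). *Slc25a34* and *Slc25a53* did not pass (log2 fold change -0.28 and -0.093, adjusted p = 0.0916 and 0.244).

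**Figure D4:**
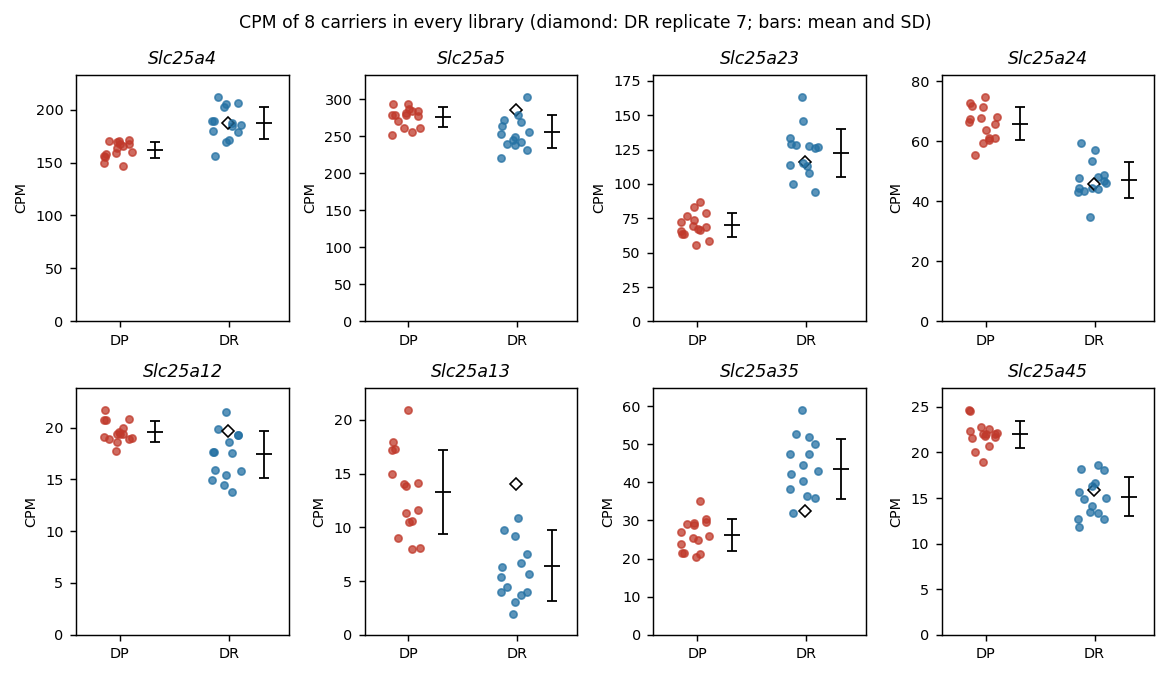
CPM of 8 carriers in each of 15 DP (red) and 15 DR (blue) libraries, with mean and SD beside the points and DR replicate 7 as a diamond; each axis starts at 0. The groups are apart for Slc25a23 and Slc25a45 and overlap for the other 6, and Slc25a4 and Slc25a5 as well as Slc25a23 and Slc25a24 shift in opposite directions.

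Related carriers were compared within each library by the log2 ratio of their counts, which does not depend on library scaling and is not corrected for gene length. Of 10 pairs set up, 9 had both genes tested, and 8 of these 9 ratios differed between DP and DR after adjustment over the pairs (two-sided permutation tests with 100000 resamples, in which the smallest possible p is 2e-05). Several of these pairs join a gene that passed the edgeR test with a relative that did not, so the ratios restate part of the same measurements. They do show whether the change of the members was equal. The share of other gene pairs whose ratio differs was not computed, and the ratios were not fitted with marker levels. Group and tissue makeup cannot be told apart in the ratios either.

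The log2 ratio of *Slc25a23* to *Slc25a24* was 0.09 ± 0.28 in DP and 1.38 ± 0.36 in DR, a difference of -1.29 ± 0.12 SE on the log2 scale (permutation p = 2e-05, adjusted over 9 pairs p = 4.5e-05), and the highest DP library stayed below the lowest DR library. The log2 ratio of *Slc25a25* to *Slc25a24* was 0.12 ± 0.25 in DP and 0.78 ± 0.27 in DR, a difference of -0.66 ± 0.096 SE on the log2 scale (permutation p = 2e-05, adjusted over 9 pairs p = 4.5e-05), with overlap. For the ADP/ATP carriers *Slc25a4* to *Slc25a5* the log2 ratio was -0.77 ± 0.061 in DP and -0.46 ± 0.21 in DR, a difference of -0.31 ± 0.057 SE on the log2 scale (permutation p = 2e-05, adjusted over 9 pairs p = 4.5e-05). All 15 DP libraries were below the DR median in each of these 3 pairs, and the DR libraries of the ADP/ATP pair spread more widely, from -0.80 to -0.17 against -0.92 to -0.67 in DP.

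The log2 ratio of *Slc25a12* to *Slc25a13* was 0.62 ± 0.41 in DP and 1.60 ± 0.76 in DR, a difference of -0.99 ± 0.22 SE on the log2 scale (permutation p = 0.0001, adjusted over 9 pairs p = 0.00018), so that *Slc25a13* rose more than *Slc25a12*. Without DR replicate 7 this difference was -1.07 (adjusted p = 0.000144). The log2 ratio of the mitoferrins *Slc25a37* to *Slc25a28* was 0.36 ± 0.11 in DP and 0.01 ± 0.20 in DR, a difference of 0.34 ± 0.060 SE on the log2 scale (permutation p = 2e-05, adjusted over 9 pairs p = 4.5e-05), higher than the DR median in all 15 DP libraries. The ratio of *Slc25a14* to *Slc25a30* gave a difference of -0.34 ± 0.13 SE on the log2 scale (permutation p = 0.016, adjusted over 9 pairs p = 0.0239). *Slc25a33* to *Slc25a36* gave a difference of -0.14 ± 0.058 SE on the log2 scale (permutation p = 0.0209, adjusted over 9 pairs p = 0.0269), and *Slc25a10* to *Slc25a11* gave a difference of -0.11 ± 0.051 SE on the log2 scale (permutation p = 0.0363, adjusted over 9 pairs p = 0.0408). Without DP replicate 4 and DR replicate 7, the libraries least correlated with their groups, both of these calls were lost (adjusted p = 0.0602 and 0.0503), whereas without DR replicate 7 alone both were kept (adjusted p = 0.0437 for each). The glutathione carriers *Slc25a39* to *Slc25a40* gave a difference of -0.12 ± 0.061 SE on the log2 scale (permutation p = 0.0563, adjusted over 9 pairs p = 0.0563) and did not pass. In either set of library numbers alone, the lower 15 or the higher 15, 5 pairs passed.

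**Figure D5:**
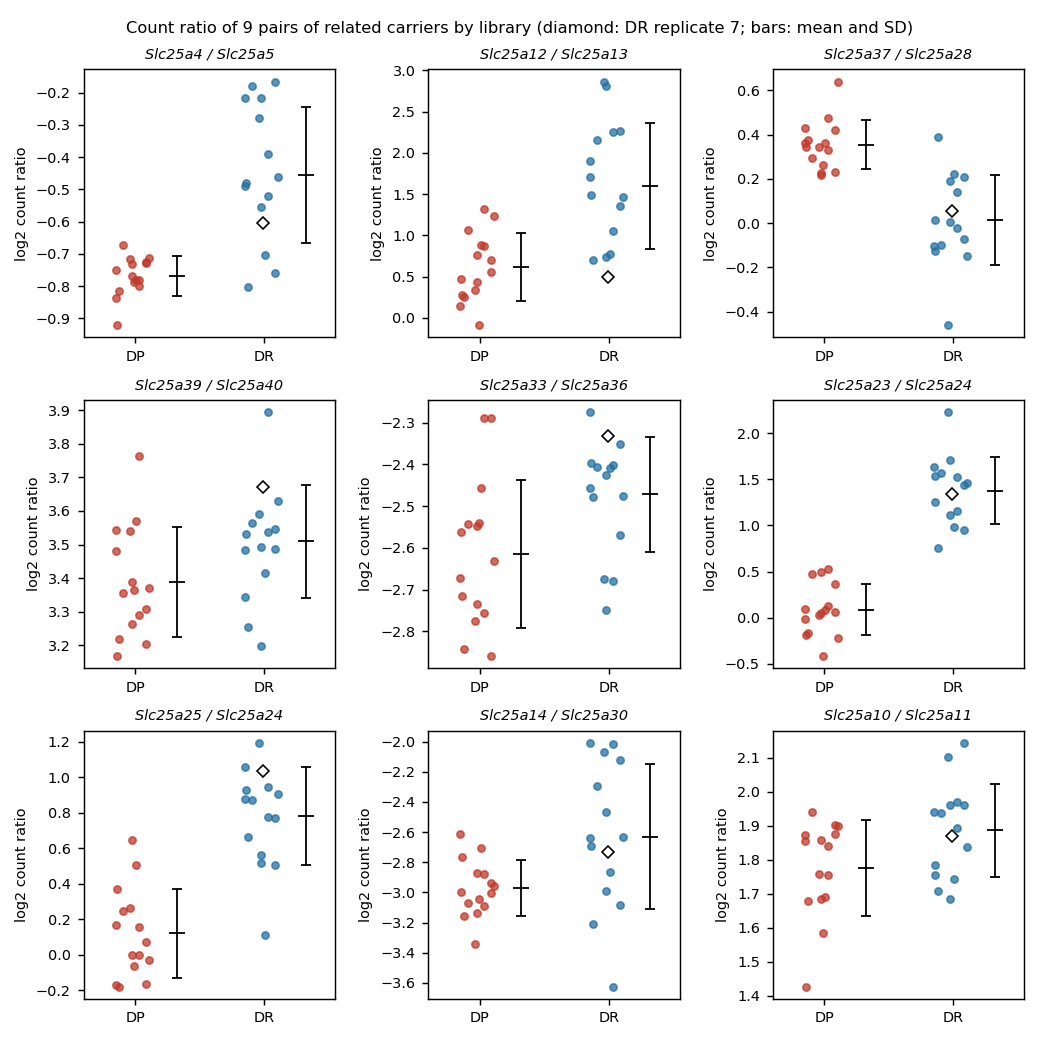
Log2 ratio of the counts of 9 pairs of related carriers in each library (DP red, DR blue, mean and SD beside them, DR replicate 7 as a diamond); axes do not start at 0. The log2 ratio of Slc25a23 to Slc25a24 lies between -0.42 and 0.53 in DP and between 0.75 and 2.23 in DR, without overlap, and the other 8 panels overlap.

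Genes that work with the carriers were read from 11 lists, of which 102 members were tested, and 20 of them rose and 48 fell, where 28.2% of all genes rose and 27.3% fell. These shares are the background of each count by list below. With macrophage markers as a covariate 0 rose and 0 fell (edgeR, 13 at an unadjusted p below 0.05). The 5 family members that carry other symbols were divided: 1 rose, 2 fell and 2 did not pass. *Ucp2*, an uncoupling protein relative known to be abundant in macrophages and other immune cells, was at 831 ± 83.6 CPM in DP and 470.1 ± 107 CPM in DR, 1.77-fold higher (log2 fold change 0.82 ± 0.089 SE, adjusted p = 5.97e-09). *Ucp3*, known from muscle and brown fat, fell (19.8 ± 4.57 CPM in DP and 30.7 ± 5.63 CPM in DR, log2 fold change -0.63 ± 0.10 SE, adjusted p = 5.04e-06), and *Mtch2*, a protein of the outer membrane, fell 1.17-fold (adjusted p = 2.29e-06). *Ucp1*, the uncoupling protein of brown fat, was at 24.6 ± 14.3 CPM in DP and 32.5 ± 16.6 CPM in DR and did not pass (adjusted p = 0.281), and *Mtch1* did not pass either (adjusted p = 0.188).

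The 4 enzymes of the malate-aspartate shuttle divided by reaction. *Got1* and *Got2*, the cytosolic and mitochondrial aspartate aminotransferases, rose 1.58-fold (20.4 ± 2.09 CPM in DP and 12.9 ± 3.18 CPM in DR) and 1.30-fold (62.8 ± 4.90 CPM in DP and 48.4 ± 8.43 CPM in DR), with adjusted p = 7.99e-07 and 8.56e-06. *Mdh1* and *Mdh2*, the malate dehydrogenases, fell 1.18-fold and 1.14-fold (adjusted p = 1.32e-06 and 1.8e-05). Of the carriers of this shuttle *Slc25a12* and *Slc25a13* were higher in DP, and *Slc25a11* did not pass (log2 fold change 0.019, adjusted p = 0.615).

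Of 16 genes that import carriers into the inner membrane, 2 rose, 2 fell and 12 did not pass, with a median log2 fold change of -0.034. The receptor subunits *Tomm20* and *Tomm22* rose by 0.053 and 0.075 on the log2 scale (adjusted p = 0.0246 and 0.0217), and *Tomm7* and the chaperone *Timm8b* fell by 0.16 and 0.19 (adjusted p = 0.0113 and 0.000206). *Timm22*, the channel of the carrier translocase, was at 20.3 ± 1.88 CPM in DP and 19.05 ± 1.47 CPM in DR and did not pass (adjusted p = 0.0815).

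Of 14 tested ATP synthase subunits 10 fell and 2 rose, beside 27.3% and 28.2% of all genes, with a median log2 fold change of -0.16. *Atp5b* and *Atp5a1*, the catalytic core, fell 1.19-fold and 1.15-fold (1149 ± 94.8 CPM in DP and 1365 ± 62.8 CPM in DR for *Atp5b*, adjusted p = 6.71e-07 and 5.75e-07), and *Atp5h* fell 1.15-fold (adjusted p = 1.03e-05). *Atp5g1* and *Atp5g2*, which encode the same membrane ring subunit, rose 1.14-fold and 1.06-fold (adjusted p = 6.79e-06 and 0.00989), while *Atp5g3*, the remaining gene for it, did not pass (adjusted p = 0.0839).

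Other transporters of the inner membrane moved both ways, with 6 rises and 10 falls among 18 tested and a median log2 fold change of -0.15. *Mcub*, the inhibitory subunit of the calcium uniporter, rose 1.88-fold (18.2 ± 1.97 CPM in DP and 9.70 ± 2.18 CPM in DR, log2 fold change 0.91 ± 0.091 SE, adjusted p = 2.03e-09), and the pore *Mcu* and the sodium and calcium exchanger *Slc8b1* rose by 0.19 and 0.18 on the log2 scale. *Sfxn3*, a sideroflexin, rose 1.32-fold. *Ghitm* fell 1.18-fold (301 ± 21.6 CPM in DP and 356 ± 11.3 CPM in DR), *Abcb8* fell 1.201-fold and *Sfxn4* fell 1.53-fold (adjusted p = 5.63e-08, 1.73e-07 and 2.08e-07). Of the outer membrane channels *Vdac2* and *Vdac3* rose 1.12-fold and 1.06-fold, and *Vdac1* did not pass.

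Among 15 genes of haem and iron-sulfur cluster synthesis, which use the iron and glycine that carriers import, 10 fell and 1 rose, beside the same shares, with a median log2 fold change of -0.19. *Fech*, the ferrochelatase, fell 1.18-fold, *Alad*, the aminolevulinate dehydratase, fell 1.40-fold, and the assembly genes *Isca1* and *Nfs1* fell 1.15-fold and 1.14-fold (adjusted p = 5.13e-09, 5.31e-08, 3.11e-07 and 8.66e-07), against the rise of *Slc25a37*. *Cpox*, another enzyme of the haem pathway, was the member that rose (1.102-fold, adjusted p = 0.0217). Of 5 mitochondrial enzymes of folate metabolism 4 rose and 0 fell, beside 28.2% and 27.3% of all genes: *Aldh1l2* 2.20-fold, *Mthfd1l* 1.44-fold, *Mthfd2* 1.40-fold and *Shmt2* 1.13-fold (adjusted p = 6.52e-06, 6.69e-05, 7.47e-06 and 4.43e-05), with a median log2 fold change of 0.49 over the list, while the carrier *Slc25a32* did not pass.

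Of 7 genes of coenzyme A synthesis 2 fell, the pantothenate kinase *Pank3* 1.17-fold and *Coasy*, the enzyme of the last step, 1.19-fold (adjusted p = 0.000228 and 3.89e-05), beside the falls of *Slc25a42* and *Slc25a16*. Of 5 genes of mitochondrial fusion and fission listed beside *Slc25a46*, 4 fell. The mitofusin *Mfn2* was 1.23-fold and the inner membrane GTPase *Opa1* 1.14-fold lower (adjusted p = 2.56e-08 and 2.04e-05), *Mief2* 1.18-fold and *Mfn1* 1.08-fold. Of 10 regulators of mitochondrial genes 6 fell and 0 rose, beside 27.3% and 28.2% of all genes, with a median log2 fold change of -0.19. The nuclear receptor *Ppara* fell 1.95-fold (2.60 ± 0.700 CPM in DP and 5.07 ± 1.35 CPM in DR), the coactivator *Ppargc1a* fell 1.66-fold (2.78 ± 0.904 CPM in DP and 4.60 ± 0.993 CPM in DR) and *Pparg* fell 1.21-fold (adjusted p = 5.93e-07, 5.96e-05 and 5.58e-06), whereas *Nrf1* and *Tfam* did not pass (adjusted p = 0.237 and 0.89).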

How the data were processed

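RNA of gWAT was sequenced from 15 DP and 15 DR mice. The authors deposited estimated counts, 1 whole number per gene and library, and the submitters' processing notes name StringTie 2.1.3b and GRCm38.p6. The sources used here do not give the aligner, the annotation or whether strand was used. All 30 count columns were mapped by library title, and 0 were left unused. Titles do not pair mice, and replicate numbers follow deposition order.

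The group test was edgeR 4.0.16 under R 4.3.3 (TMM, filterByExpr with minimum count 10 and minimum total count 15, quasi-likelihood F test, group as the only term), with Benjamini-Hochberg adjustment over 17482 genes and a threshold of 0.05. The standard error is the log2 fold change divided by the square root of F. CPM were scaled with TMM factors, and FPKM used exon lengths of GENCODE M21. DESeq2 1.42.0 and other alternatives are given at the end of the document. Ratios of pairs used 0.5 added counts and permutation tests in SciPy (100000 resamples). The fits were tested on simulated data.

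The members, roles, pairs and lists were chosen with earlier results of these data known. Values of 1 tested carrier and of some list genes are not reported here, although counts and medians include them, and all other carriers are named. Libraries are given as lowest, median and highest for the 6 carriers of highest FPKM, the 6 largest rises and falls with a mean count of at least 50, and pairs that passed. Lists give up to 4 members of smallest p and members that moved against their list's majority. Other list members were named after their values were seen. Libraries were checked for duplicates, and none of the 435 pairs agreed within sampling noise (lowest chi-square per degree of freedom 7.37). Counts include amplification duplicates. Promoters came from RefSeq on GRCm38.p6, and 34 of 45 carriers matched.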

Additional observations from a re-analysis of the deposited data

How the results depend on the processing

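The marker covariates changed most. With either marker set 0 carriers were called higher and 0 lower, and of the list members 0 and 0. *Pparg* is both a list member and 1 of the adipocyte markers, so the loss of its call with that covariate was partly built in. Among the carriers whose values are given, log2 fold changes that changed sign were, with macrophage markers, *Slc25a3* 0.011, *Slc25a4* 0.0033, *Slc25a5* -0.068, *Slc25a10* 0.10, *Slc25a13* -0.60, *Slc25a17* 0.070, *Slc25a27* 0.19, *Slc25a28* 0.065, *Slc25a29* 0.28, *Slc25a30* -0.048, *Slc25a36* 0.012, *Slc25a38* 0.11, *Slc25a39* 0.033, *Slc25a40* -0.0084, and with adipocyte markers, *Slc25a3* 0.060, *Slc25a4* 0.00047, *Slc25a10* 0.15, *Slc25a13* -0.15, *Slc25a17* 0.042, *Slc25a22* 0.071, *Slc25a27* 0.17, *Slc25a28* 0.057, *Slc25a34* 0.0082, *Slc25a35* 0.034, *Slc25a36* 0.031, *Slc25a37* -0.016, *Slc25a39* 0.081, *Slc25a53* 0.053, where none passed. With the mitochondrial genome share they were *Slc25a3* 0.020, *Slc25a28* 0.011, *Slc25a36* 0.0037, without a composition factor *Slc25a3* 0.015, *Slc25a15* 0.018, *Slc25a28* 0.019, *Slc25a36* 0.025, with lower library numbers *Slc25a11* -0.056, without the least correlated library of each group *Slc25a15* 0.056, and without DR replicate 7, an alternative chosen after the data were seen, *Slc25a15* 0.046; none of these had passed. The higher library numbers called 11 carriers lower, against 17 in the lower ones. Over all genes the higher library numbers called 3055 higher and 3158 lower of 17521. The lower library numbers called 3697 higher and 3933 lower of 17557. A fold of at least 1.5 left 2 carriers higher and 5 lower, and 4 list members in each direction. List members called higher were 13 and 12 in the lower and higher library numbers, and pairs that passed were 5 in each. The other counts of carriers, pairs and list members stayed within 1.5 times. Of the 26 carriers that passed, 16 kept their call in all 10 alternatives other than the marker and mitochondrial covariates and the 1.5-fold rule, and 0 changed sign there. Fewer libraries were fitted in the library number sets. At mean counts of 20 to 92, as in *Slc25a48*, *Slc25a47*, *Slc25a43* and *Slc25a14*, fold changes are less precise. No paired analysis was possible because the labels give no replicate numbers that groups share. The cause of these changes was not tested.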

Other observations

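Most tested carriers varied more between mice in DR than in DP. The share over all genes is not given here, and DR libraries were also spread more widely as a whole. On the first principal component of all tested genes they ran from -54.8 to 0.668, against 10.2 to 38.9 in DP. The median coefficient of variation of CPM over the 38 tested carriers was 8.51% in DP and 11.3% in DR, and 27 of the 38 were more variable in DR, a count that was also 27 without DR replicate 7. *Slc25a13* had coefficients of 29.1% in DP and 51.4% in DR, *Slc25a12* of 5.19% and 13.1%, *Slc25a30* of 6.79% and 17.01%, and *Slc25a4* of 4.80% and 8.06%. Others were more variable in DP, among them *Slc25a25* at 17.05% in DP and 13.1% in DR, *Slc25a26* at 12.5% and 8.89%, and *Slc25a42* at 20.4% and 17.3%. These genes share libraries and tissue makeup, and the difference in spread was not tested.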
